A study of Saccharomyces cerevisiae and Saccharomyces paradoxus with 173 samples.

Results

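The genes described here are 37 budding yeast genes of DNA replication, repair and sister chromatid cohesion, chosen by name and matched to open reading frame identifiers, among 6172 genes measured. All 37 were found. They were followed in 10 natural strains, 9 labelled Saccharomyces cerevisiae (YPS183, YPS2055, YPS2060, YPS2066, YPS2067, YPS2073, YPS2079, YPS3060 and YPS3137) and 1 labelled Saccharomyces paradoxus (YPS3395). Per the labels, 1 culture of each strain in synthetic dextrose medium was grown at 30 °C. It was held in late G1 for about 75 min with 4 μM of the mating pheromone alpha factor. The culture was then washed free of pheromone, split over 18 flasks and kept at 18 °C. Release from pheromone and the lower temperature thus came together and cannot be told apart. RNA was taken at 18 times from 0 to 345 min after release, with 3 of these missing in YPS2060 and 2 each in YPS3137 and YPS2067. Every sample was hybridised on 2-colour spotted oligonucleotide arrays against the same reference, RNA of unsynchronised YPS183 cells grown at 30 °C in rich medium (YPD). All strains thus share the pheromone arrest and the cold release. The reference differs from the samples in medium, temperature and, for 9 of the 10 strains, in strain.

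Values are the deposited log ratios, read here as log2 of sample over reference. Neither the base nor the direction of the ratio is given in the sources used here: sizes hold only for base 2, and the direction is likely rather than settled. A ratio compares 1 gene between samples and gives no level of a gene against another gene. With 1 culture per strain, a p-value over strains measures the spread between strains. A p-value within a strain uses, for each gene, the distance of the samples from their strain's smooth curve. That distance was pooled over all strains, so it is not the error of the named strain alone. The strains differed in it, with a residual SD over members of 0.11 in YPS2055 and 0.25 in YPS3060. Array number limits the precision, at 1 to 5 arrays a sample. The 8 samples on 1 array, each in a single dye orientation, are 4 of YPS2066 (24, 63, 135 and 251 min), 2 of YPS2060 (227 and 260 min) and 1 each of YPS3060 (251 min) and YPS3395 (218 min). In 40 samples some or all arrays came from prints of 2005 or 2006, the rest being 2007 prints where a year is given. Of these samples 17 are YPS2073, 9 YPS3060, 9 YPS3137 and 5 YPS183. In YPS3137 those after 0 min lie on older prints alone. In a mixed culture, the share of cells at a stage and the RNA per cell cannot be told apart.

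Over 13 genes induced by pheromone arrest, the median at the later times was below that at 0 min in 9 of 10 strains, at -0.42 later and 2.14 at 0 min in YPS183, for example. In YPS3060 it was -0.43 later and -0.69 at 0 min. Only 3 of the 13 were above 0 at 0 min in YPS2073 and 2 in YPS3060. The part of a weaker arrest signal in the results below was not tested.

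DNA polymerase alpha and its primase start each new strand with a short primer. Clamp loaders then place the ring-shaped clamp, Pol30, on the DNA, where it tethers polymerase delta on the lagging strand, while polymerase epsilon copies the leading strand. Replication protein A coats single-stranded DNA, Rad27 and Cdc9 trim and join Okazaki fragments, fork protection factors hold the machinery together, and cohesin rings entrap the sister chromatids as they are made. In budding yeast many of these genes are transcribed in late G1 under the factor MBF, a complex of Mbp1 and Swi6, so that their messages are most abundant around the start of S phase.

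The question of the first comparison was which members changed after release. The mean of the 24, 48, 63 and 87 min samples, the early window, was set against the 0 min sample of the same strain. A gene was called when its limma adjusted p was under 0.05. A window averages the times that a strain has, and here YPS2067 lacks 87 min and YPS3137 lacks 63 min. Its times are fixed, so it need not hold the same stage of the cycle in every strain. Of the 37 members 23 rose and 0 fell, against 6.25% of all genes that rose and 5.61% that fell. The median difference of the members was 0.32 on the log2 scale, with -0.02 for all genes, and 35 of 37 had a positive mean difference. A rise of at least 1 was seen for 1 gene, POL30. In YPS2055 the early value was above the 0 min value for 37 of 37 members, and in YPS2073, the strain with the lowest count, for 26 of 37. The median difference over members was 0.66 in YPS2055 and lowest in YPS2073, at 0.13, followed by YPS3395 and YPS3137, at 0.15 each.

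**Figure D1:**
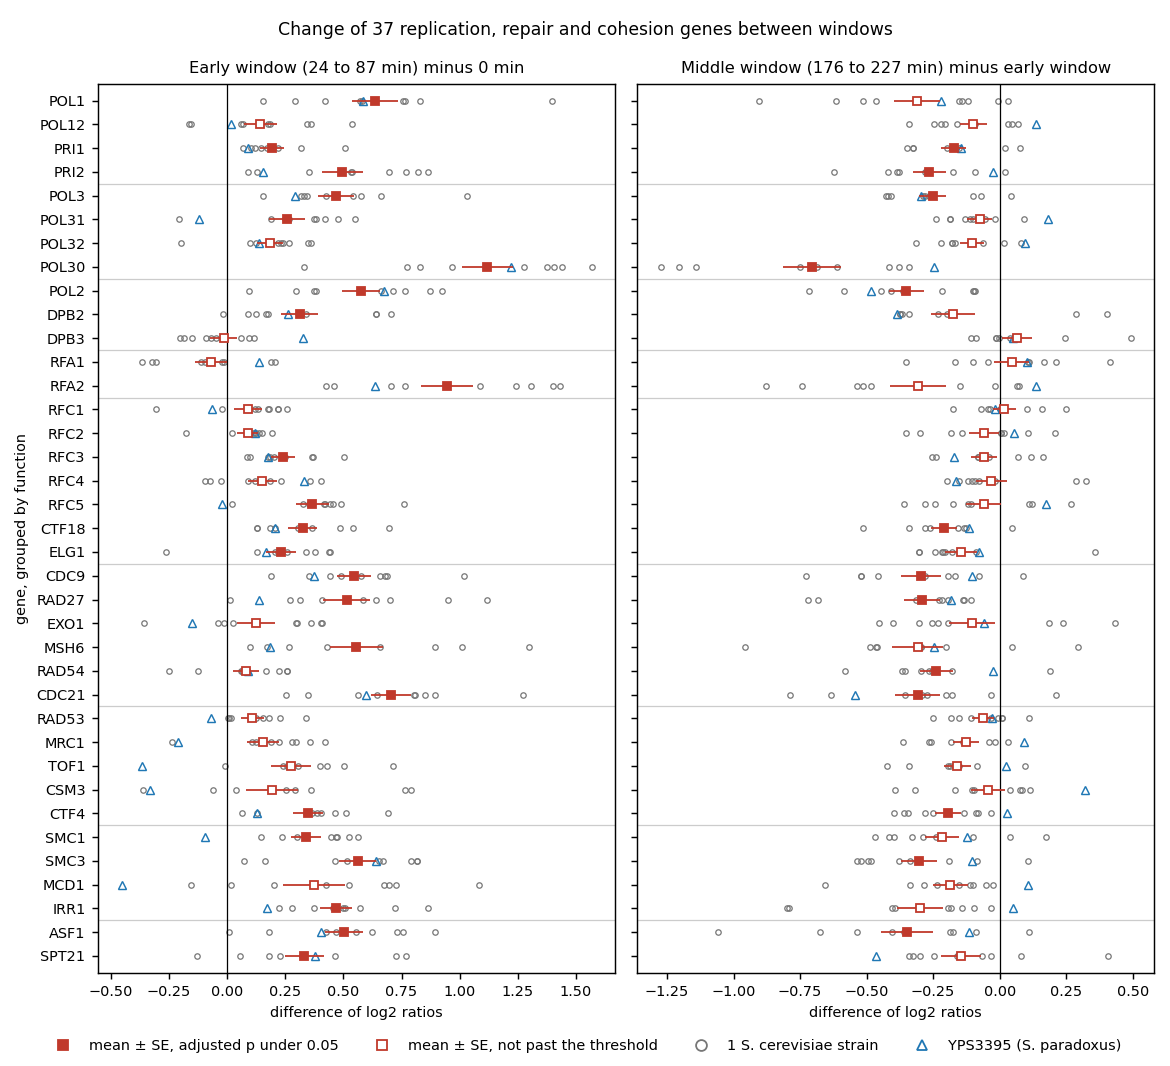
Difference of log2 ratios (x axis) for each of the 37 genes (y axis, grouped by function, lines between groups), early window minus 0 min on the left and middle window minus early window on the right. Squares with bars are the mean ± SE of 10 strains, filled where the adjusted p was under 0.05, circles are S. cerevisiae strains and triangles YPS3395; the left panel holds 23 filled squares, all above 0, and the right panel 13, all below 0.

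Among the genes of polymerase alpha and primase, 3 of 4 rose. POL1 (YNL102W), the catalytic subunit, was at -0.29, 0.12 and 0.63 in the early window (lowest, median and highest of 10 strains), against -0.77, -0.55 and -0.33 at 0 min. The strains' early values all lay above their 0 min values as groups, without overlap, and the difference was 0.63 ± 0.10 (SE, limma adjusted p = 0.0032). PRI2 (YKL045W), the large primase subunit, rose by 0.49 ± 0.09 and PRI1 (YIR008C), its catalytic partner, by 0.19 ± 0.05, each in 10 of 10 strains. The PRI1 call was lost when any of 5 single strains was left out, with adjusted p up to 0.074, and without the samples on 1 array (adjusted p = 0.052). POL12 (YBL035C), the B subunit, had a difference of 0.14 ± 0.07 and did not pass (adjusted p = 0.22). POL1 had a larger difference than POL12 in 10 of 10 strains, by 0.085 to 0.86.

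The clamp gene POL30 (YBR088C) had the largest difference of the 37. Its early window values were 0.21, 1.04 and 1.44, against -1.17, -0.15 and 0.86 at 0 min (lowest, median and highest of 10 strains). The groups overlapped, with YPS183 the lowest in both and YPS2073 the highest at 0 min, and the early value was higher in 10 of 10 strains. The difference was 1.12 ± 0.11 (adjusted p = 0.000356), or 2.17-fold, and ranged over strains between 0.33 in YPS2073 and 1.57 in YPS2055. Of the polymerase delta subunits that the clamp tethers, the catalytic POL3 (YDL102W) rose by 0.47 ± 0.08 in 10 of 10 strains. POL31 (YJR006W), its second subunit, rose by 0.26 ± 0.08 in 8 of 10 strains, a call that was kept in 2 of the 10 runs that leave out a strain (adjusted p up to 0.11). The third, POL32 (YJR043C), stood at 0.18 ± 0.06 with an adjusted p of 0.055. POL30 had a larger difference than POL3, POL31 and POL32 in 10 of 10 strains each.

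Polymerase epsilon had 2 of 3 members among the calls. POL2 (YNL262W), its catalytic subunit, was at -0.23, 0.03 and 0.38 in the early window, against -1.15, -0.62 and -0.02 at 0 min. It rose in 10 of 10 strains, by 0.57 ± 0.08 (adjusted p = 0.0024). DPB2 (YPR175W), the essential second subunit, rose by 0.31 ± 0.08 in 9 of 10 strains, and its call was lost without YPS2055 or without YPS2067 (adjusted p up to 0.061). DPB3 (YBR278W), a small histone-fold subunit, differed by -0.01 ± 0.06 and was above its 0 min value in 4 of 10 strains (adjusted p = 0.91). POL2 had the larger difference of POL2 and DPB3 in 10 of 10 strains.

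The 2 measured genes of replication protein A had the largest mean gap of the subunit pairs compared, 1.02. RFA2 (YNL312W), the middle subunit, was at -0.0013, 0.24 and 0.56 in the early window, against -1.24, -0.66 and -0.078 at 0 min (lowest, median and highest of 10 strains), so that the groups did not overlap. Its rise of 0.95 ± 0.11 (adjusted p = 0.0011), or 1.93-fold, was seen in 10 of 10 strains. RFA1 (YAR007C), the large subunit, was at -0.081, 0.024 and 0.43 in the early window, against -0.21, 0.22 and 0.35 at 0 min, and these overlapped. RFA1 differed by -0.07 ± 0.07 (adjusted p = 0.56). The gap between RFA2 and RFA1 ran from 0.50 to 1.61 and had the same sign in 10 of 10 strains. POL1 and RFA2 were the 2 members whose groups did not overlap. The share of all genes without overlap was not counted, so no rate stands beside this.

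**Figure D2:**
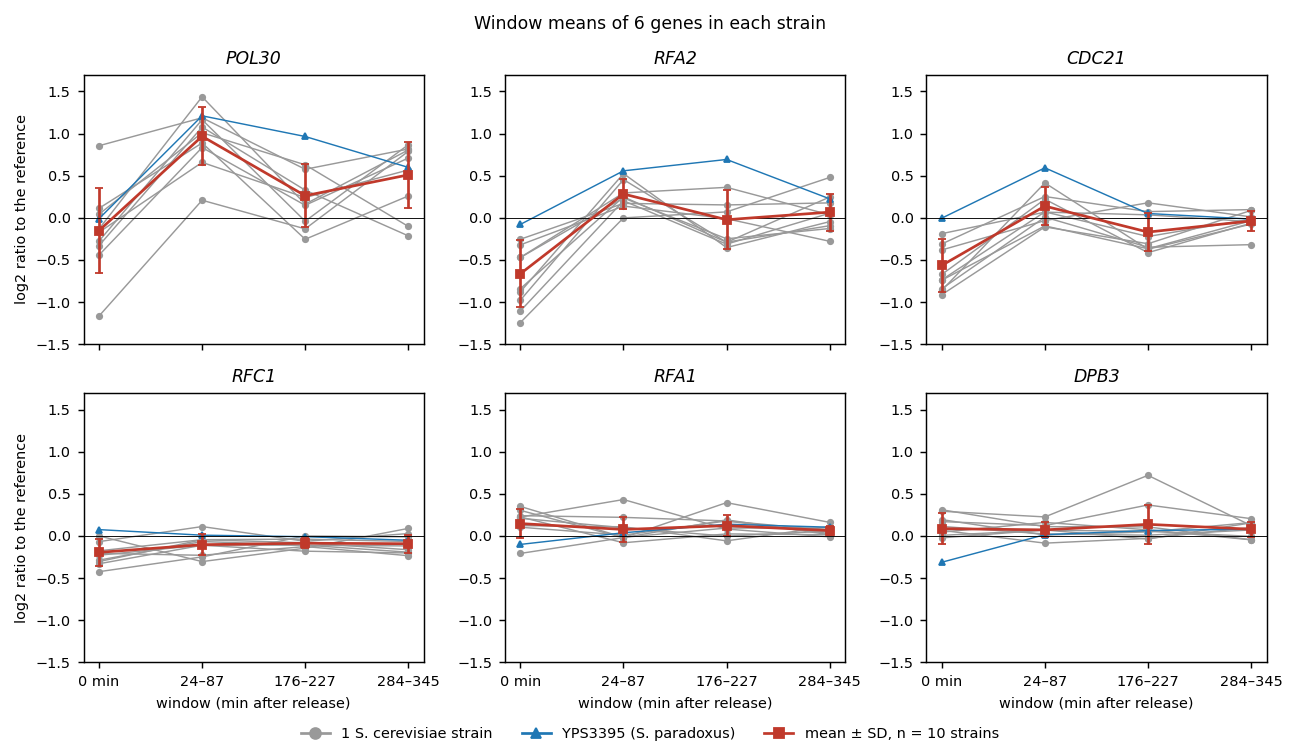
Log2 ratio to the reference (y axis) at 0 min and in the 24 to 87, 176 to 227 and 284 to 345 min windows (x axis) for 6 genes. Grey lines are S. cerevisiae strains, the blue line with triangles is YPS3395, and red squares with bars are the mean ± SD of 10 strains. POL30, RFA2 and CDC21 lie higher in the 24 to 87 min window than at 0 min in every strain, while RFC1, RFA1 and DPB3 differ by 0.09, -0.07 and -0.01 on average.

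Clamp loaders open the clamp ring with ATP. RFC1 (YOR217W) and RFC2 to RFC5 form the main loader, in which CTF18 (YMR078C) and ELG1 (YOR144C) replace Rfc1 to give the cohesion-linked loader and the clamp unloader. Of these 7 genes 4 rose: RFC5 (YBR087W) by 0.37 ± 0.07, CTF18 by 0.32 ± 0.06, RFC3 (YNL290W) by 0.24 ± 0.05 and ELG1 by 0.23 ± 0.07. RFC1 (0.09 ± 0.06), RFC2 (YJR068W, 0.09 ± 0.05) and RFC4 (YOL094C, 0.15 ± 0.06) did not pass, with adjusted p of 0.36, 0.24 and 0.13. ELG1 was lower in the early window in 1 strain, YPS2066 (-0.26), where its 24 min sample, on 1 array, was at -1.35, while the other 9 strains were between -0.12 and 0.52 at that time. Without the samples on 1 array its difference was -0.0045 in YPS2066. Its call was kept in 2 of 10 runs that leave out a strain.

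In the group of fragment processing, repair and nucleotide supply 4 of 6 members rose. CDC21 (YOR074C), the thymidylate synthase, was at -0.11, 0.069 and 0.59 in the early window, against -0.91, -0.70 and -0.0042 at 0 min. It rose in 10 of 10 strains, by 0.70 ± 0.09 (adjusted p = 0.0014), or 1.63-fold. The mismatch recognition gene MSH6 (YDR097C) rose by 0.56 ± 0.12, the DNA ligase gene CDC9 (YDL164C) by 0.55 ± 0.07 and the flap endonuclease gene RAD27 (YKL113C) by 0.51 ± 0.10, each in 10 of 10 strains. After quantile normalization RAD27 no longer passed. Neither the exonuclease gene EXO1 (YOR033C), at 0.12 ± 0.08, nor the recombination gene RAD54 (YGL163C), at 0.08 ± 0.06, passed (adjusted p = 0.36 and 0.41).

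Fork protection and checkpoint genes had 1 call among 5. CTF4 (YPR135W), which couples the helicase to polymerase alpha, rose by 0.35 ± 0.06 in 10 of 10 strains (adjusted p = 0.0066). TOF1 (YNL273W) and CSM3 (YMR048W), partners in the fork pausing complex, had differences of 0.27 ± 0.09 (adjusted p = 0.060) and 0.19 ± 0.11 (adjusted p = 0.31). The replication checkpoint mediator MRC1 (YCL061C) stood at 0.15 ± 0.07 and the checkpoint kinase RAD53 (YPL153C) at 0.11 ± 0.05, both with an adjusted p of 0.18. In YPS3395 the differences of TOF1 (-0.37), CSM3 (-0.33), MRC1 (-0.21) and RAD53 (-0.067) were all below 0. Strains below 0, YPS3395 among them, numbered 2 of 10 for TOF1, 3 for CSM3, 2 for MRC1 and 1 for RAD53. CSM3 was lowest in YPS3137 (-0.36) and MRC1 in YPS2073 (-0.24). A difference between strains was not tested for this window.

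Of the cohesin genes 3 of 4 rose in this window, and of the chromatin genes 2 of 2. SMC3 (YJL074C), a core cohesin arm, was at -0.14, 0.32 and 0.58 in the early window, against -0.50, -0.24 and -0.085 at 0 min, with a rise of 0.56 ± 0.08 in 10 of 10 strains (adjusted p = 0.0024). IRR1 (YIL026C), which encodes the subunit also called Scc3, rose by 0.47 ± 0.07 in 10 of 10 strains and SMC1 (YFL008W), the second arm, by 0.34 ± 0.07 in 9 of 10. MCD1 (YDL003W), the subunit cleaved at anaphase, had a difference of 0.37 ± 0.13 and did not pass (adjusted p = 0.086). Its early value was lower than its 0 min value in YPS3395 (-0.45) and YPS3137, and above it in the other 8 strains, by up to 1.08 in YPS2055. The histone chaperone gene ASF1 (YJL115W) rose by 0.50 ± 0.08 in 10 of 10 strains and SPT21 (YMR179W), a regulator of histone gene transcription, by 0.33 ± 0.08 in 9 of 10. SPT21 lost its call without YPS2055, YPS2060, YPS2066 or YPS2067 (adjusted p up to 0.056).

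In the runs that leave out a strain, 18 to 24 members rose and 0 fell. Of the 23 calls 18 were kept in every such run. Without the 4 strains that have samples on older prints, 19 members rose, and without the samples on 1 array 23 did. The share of all genes that rose was not counted in these runs.

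The next comparison asked what followed the early window. The mean of the 176, 194, 218 and 227 min samples, the middle window, was set against the early window, so both comparisons share the early samples. Of the 37 members 13 fell and 0 rose, against 3.94% of all genes that fell and 3.86% that rose, and the member median was -0.18, with 0.0016 for all genes. This count rests on which strains and times are included. It was 2 without YPS2055, 3 without YPS2060, 4 without YPS2066, 4 without YPS2079, 5 without YPS183 and at most 15 in the other runs that leave out a strain. It was 0 with the alternate sampling times 0, 48, 87, 135, 176, 218, 251, 284 and 325 min alone (set A) and 7 with the other times alone (set B). It was 22 with 2007 prints alone and 12 without the samples on 1 array. In YPS183, YPS3060 and YPS3137 all samples on older prints fall on set A, so these runs overlap. With 2007 prints alone YPS2073 has no sample in either window and drops out. The share of all genes that fell was not counted in any of these alternative runs.

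POL30 was at -0.25, 0.20 and 0.96 in the middle window, against 0.21, 1.04 and 1.44 in the early window, and fell by 0.70 ± 0.11 in 10 of 10 strains (limma adjusted p = 0.0058). POL2 fell by 0.35 ± 0.07 in 10 of 10 strains. These were the 2 calls kept in every run that leaves out a strain, and both were lost with set A alone. The other 11 members that fell were ASF1 (-0.35), CDC21 (-0.31), SMC3 (-0.30), CDC9 (-0.30), RAD27 (-0.29), PRI2 (-0.26), POL3 (-0.25), RAD54 (-0.24), CTF18 (-0.21), CTF4 (-0.19) and PRI1 (-0.17). The 13 were 4 of 6 processing, repair and nucleotide supply genes, 2 of 4 genes in each of the polymerase alpha and polymerase delta groups, and 1 gene each of polymerase epsilon, cohesin, chromatin, the clamp loaders and fork protection. Replication protein A had 0 of 2.

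RFA2 had a middle value below its early value in 7 of 10 strains and did not pass (-0.31 ± 0.11, adjusted p = 0.096). POL1 just missed the threshold, at -0.31 ± 0.09 (adjusted p = 0.051). Among the members with no call in the first comparison, RFC1 (0.02 ± 0.04), RFA1 (0.05 ± 0.07) and DPB3 (0.07 ± 0.06) were above 0 here. They were the only 3 of the 37 above 0. The rest of those with no call were below 0, from RFC4 (-0.03 ± 0.06) to RAD54 (-0.24 ± 0.06), which was called here. In YPS2060 all 37 members were lower in the middle window, or 36 of 37 without its 227 min sample on 1 array, and in YPS2055 36 of 37. In YPS2073 18 were higher and 19 lower.

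Between the late window, the mean of the 284, 301, 325 and 345 min samples, and the middle window, limma called 0 of 37 members and 0.0324% of all genes. By an unadjusted p under 0.05 there was 1 member of 37, POL2 (0.12 ± 0.05), against 6.34% of all genes. POL30 was at -0.21, 0.65 and 0.87 in the late window, against -0.25, 0.20 and 0.96 in the middle window, higher in 7 of 10 strains (0.25 ± 0.16, adjusted p = 0.87). Late minus middle, 30 of 37 members were below 0 in YPS3060. In YPS2060 32 of 37 were above 0, or 28 of 37 without its 227 min sample on 1 array. The shares of all genes were not counted per strain, and a difference between strains was not tested for this window.

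The full courses were described with each gene set relative to its own mean in the strain. The median over the 37 members was lowest at 0 min in YPS183, YPS2055, YPS2066, YPS2067, YPS2079 and YPS3395. In YPS2055 it was -0.38 at 0 min, with 34 of 37 members below their mean, and reached 0.34 at 63 min, with 37 of 37 above. It was -0.33 at 176 min and came back to 0.17 at 260 min, with 26 of 37 above. YPS2067 followed a like course, from -0.34 at 0 min over 0.33 at 48 min and -0.33 at 176 min to 0.29 at 227 min.

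YPS2066 was later and broader, with medians of 0.31, 0.31 and 0.32 at 87, 111 and 135 min. It was at -0.24 at 227 min and 0.34 at 260 min, its highest value. Its 24, 63 and 135 min samples rest on 1 array each. In YPS2060 the highest value came at 24 min (0.35, with 37 of 37 above), and 2 later samples stood low, at 227 min (-0.35) and 260 min (-0.36), while their neighbours at 218 and 251 min were at -0.01 and 0.08. Both low samples rest on 1 array in the same dye orientation, and the neighbours on 2 arrays with the dyes swapped. The part of dye and array number in these values was not tested. The 24 min sample was also the highest in YPS3060 (0.35), YPS3137 (0.29) and YPS3395 (0.076). The spread of these medians was narrow in YPS3395, between -0.12 and 0.076, and in YPS2073, between -0.14 and 0.16.

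**Figure D3:**
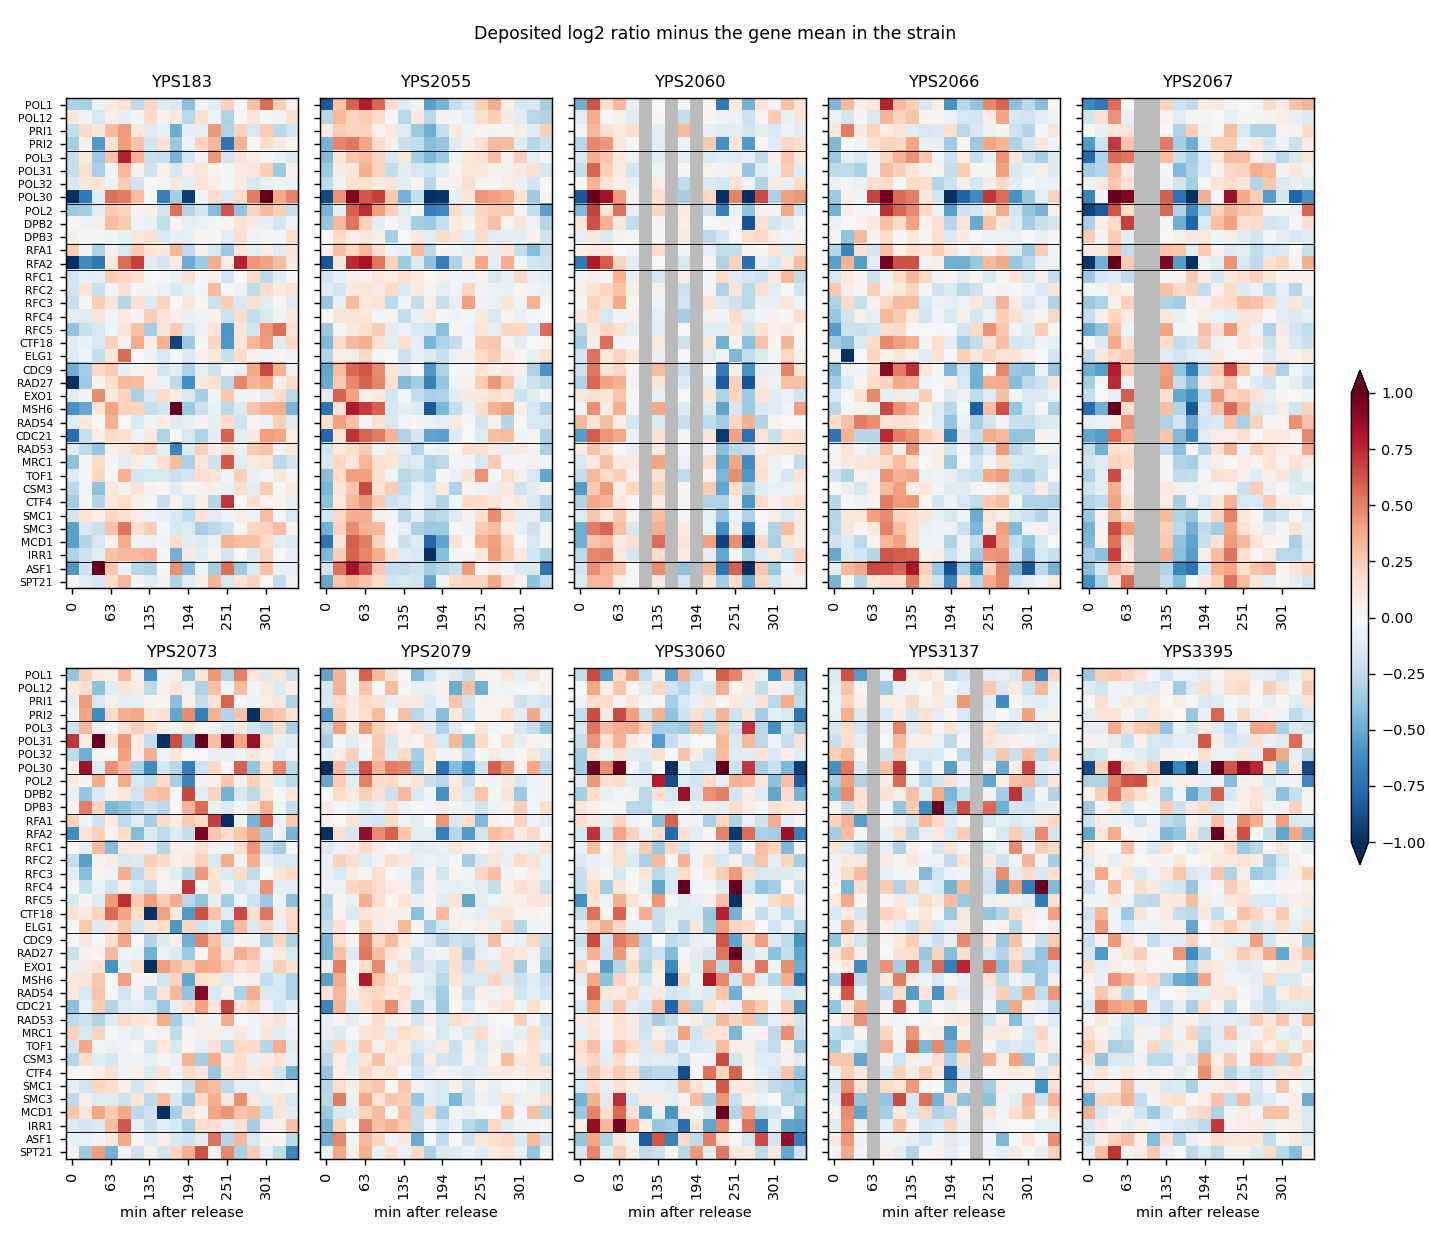
Deposited log2 ratio of each gene minus its mean in the strain (colour, blue low and red high, clipped at 1 in either direction) for 37 genes (rows, lines between functions) over sampling time (x axis, min after release) in 10 strains; grey columns were not sampled. In YPS2055 the rows are red together around 48 to 87 min, in YPS2066 around 87 to 135 min, and in YPS2073 and YPS3395 there is no column of a shared colour as strong.

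How closely the members moved together was described by the correlation of each gene with the mean of the other 36 within a strain, a description over 15 to 18 time points that share cultures and arrays. The median r over members was 0.83 in YPS2055, 0.80 in YPS2066, 0.77 in YPS2060 and 0.74 in YPS2067. It was 0.65 in YPS2079, 0.59 in YPS3060, 0.41 in YPS183, 0.38 in YPS3137, 0.21 in YPS2073 and 0.20 in YPS3395. Over all 173 samples CDC9 (0.83), POL30 (0.83) and POL1 (0.80) followed the others most closely. DPB3 (0.03), RFC1 (0.08) and RFA1 (0.11) followed them least.

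A gene was said to vary in a strain when its spline curve had an adjusted p under 0.05 and a fitted range, highest minus lowest fitted value, of at least 1. Members that varied numbered 8 in YPS2055 (3.45% of all genes), 8 in YPS2067 (8.30%), 6 in YPS2066 (6.84%), 3 in YPS183 (3.05%), 3 in YPS2073 (5.90%), 1 in YPS3060 (1.33%), 1 in YPS3395 (5.12%) and 0 in YPS2060 (0.146%), YPS2079 (0.518%) and YPS3137 (1.56%). The strains with 0 had 5, 2 and 1 members at an unadjusted p under 0.05 whatever the range, against 7.60%, 6.29% and 11.3% of all genes. In all, 30 of 370 pairs of gene and strain varied, over 16 genes. Of these 30 calls 6 were kept whichever time point was left out: MSH6 in YPS2055, ASF1 in YPS2066, POL3 and POL2 in YPS2067, IRR1 in YPS3060 and POL30 in YPS3395. Leaving out 1 time gave 0 to 4 calls in YPS183 (0 without 0 min, for example), 4 to 9 in YPS2055, 1 to 6 in YPS2066 and 4 to 8 in YPS2067. The shares of all genes were not counted in those runs.

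POL30 varied in the most strains, 5 of 10. Its fitted range was 2.20 in YPS183, 2.18 in YPS2067, 1.88 in YPS3395, 1.86 in YPS2055 and 1.74 in YPS2066. In YPS2055 the deposited ratio of POL30 was -0.13 at 0 min, 1.69 at 48 min, -0.69 at 176 min and 1.21 at 251 min. In YPS183 it was -1.17 at 0 min, 0.70 at 63 min, -0.79 at 194 min and 1.30 at 301 min, its highest value. In the S. paradoxus strain YPS3395 it was -0.01 at 0 min, 1.68 at 48 min, -0.20 at 176 min and 1.87 at 218 min, the sample on 1 array. Each of these courses had 2 high stretches with a low one between them.

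Of the catalytic polymerase subunits, POL2 varied in YPS2067 (range 1.60), YPS2055 (1.15) and YPS2066 (1.11), POL3 in YPS2067 (1.48) and POL1 in YPS2055 (1.56). RFA2 varied in YPS2067 (1.99) and YPS183 (1.90), where it was at -1.24 at 0 min and 0.85 at 111 min. CDC9 varied in YPS2067 (1.25), YPS2055 (1.25) and YPS2066 (1.14), and the cohesin gene IRR1 in YPS3060 (1.27), YPS2055 (1.12) and YPS2066 (1.05). YPS2055 also had MSH6 (1.53), CDC21 (1.46) and RAD27 (1.17), of which MSH6 varied in YPS2067 (1.55), CDC21 in YPS2066 (1.02) and RAD27 in YPS183 (1.41) as well. DPB2 and SPT21 varied in YPS2067 and ASF1 in YPS2066. The other members varied in no strain, apart from POL31, CTF18 and MCD1 in YPS2073, and 18 of 37 had a fitted range under 1 in every strain.

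The 3 calls in YPS2073 each rest on 1 sample. POL31 was at -6.56 at 152 min, where 8 other strains were between -0.43 and 0.31. Its fitted range was 4.19 with that sample and 0.95 without it (adjusted p = 0.092). MCD1 was at -1.85 in the same sample, where the other strains were between -0.48 and 0.18, and its range was 1.60 with it and 0.66 without it (adjusted p = 0.70). CTF18 was at -4.30 at 135 min, where 9 other strains were between -0.24 and 0.45, and its range of 1.74 became 0.45 without that time (adjusted p = 1). EXO1, with no call, was also low at 135 min in YPS2073, at -2.45. Of the 6401 member values, 2 were beyond 4 in size, those of POL31 and CTF18. The part of array prints in these values was not tested, and 17 of 18 YPS2073 samples have older prints.

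Timing was described by the first peak, the sampled time of the highest fitted value within 0 to 227 min. Samples were 9 to 24 min apart, and there was no test. First peaks were taken for all 370 pairs of gene and strain, of which 30 varied, so most come from curves that did not pass. In YPS2055 the first peak of 34 of 37 members fell at 48 or 63 min, with a median of 63 min. In YPS2060 27 of 37 were at 48 min, in YPS2067 26 of 37 at 63 min, and in YPS2066 25 of 37 at 111 min. YPS2067 has no sample at 87 or 111 min, so the next sample after 63 min is at 135 min. In YPS2079 15 of 37 were at 63 min and in YPS183 11 of 37 at 111 min.

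In the other 4 strains the most common time was 48 min in YPS3060 (12 of 37) and YPS3395 (8 of 37), 0 min in YPS3137 (9 of 37) and 227 min in YPS2073 (7 of 37). In YPS2073, YPS3060 and YPS3395, 12, 10 and 10 members had their highest value at 218 or 227 min, the end of the span searched. When the highest deposited value was used in place of the fitted one, the median first peak was 176 min in YPS3060, against 63 min by the fit, and 194 min in YPS2073, against 111 min. It was 48 min in YPS3137 and 63 min in YPS3395, against 87 min by the fit in each. In YPS2060 (24 min), YPS2067 (48 min) and YPS2066 (87 min) it was 15 to 24 min earlier than by the fit, and in YPS183, YPS2055 and YPS2079 it was the same.

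**Figure D4:**
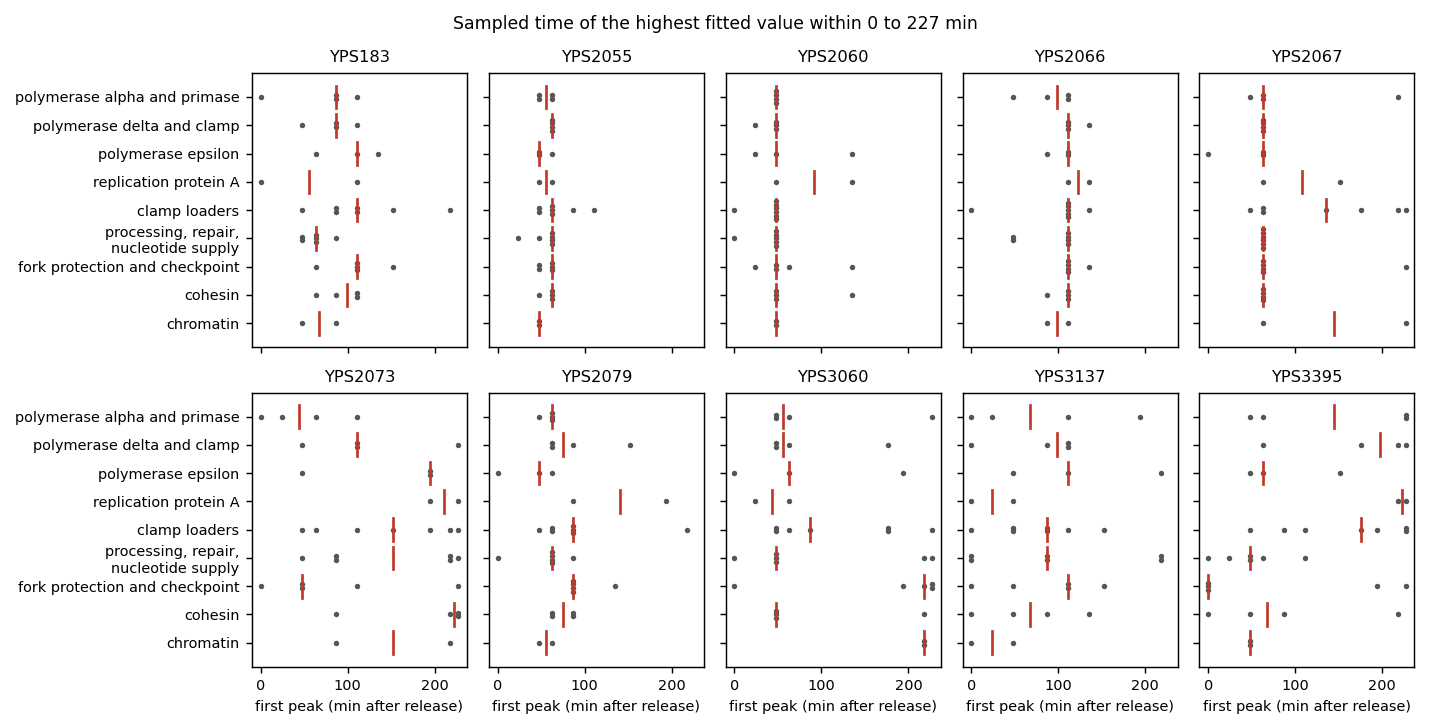
First peak of each gene (x axis, min after release; highest fitted value within 0 to 227 min) by function (y axis) in 10 strains. Points are genes, stacked where they share a time, and red bars are the median of the function; in YPS2055, YPS2060 and YPS2066 most points share a narrow band at 48 to 63, 48 and 111 min.

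An order between functions was looked for in these medians. In YPS2055 the function medians lay between 48 min (polymerase epsilon and chromatin) and 63 min, within 1 sampling step. In YPS2060 they were at 48 min for 8 of 9 functions and at 91.5 min for replication protein A. In YPS2066 they ran from 99 min (polymerase alpha and primase, chromatin) over 111 min for 6 functions to 123 min for replication protein A. In YPS2067 6 functions were at 63 min, replication protein A at 107.5 min, clamp loaders at 135 min and chromatin at 145 min. Replication protein A has 2 genes, so its median is the midpoint of RFA1 and RFA2.

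Over 10 strains, the median of the function medians was 61.5 min for chromatin, 63 min for polymerase alpha and primase, 63 min for polymerase epsilon and 63 min for processing and repair. It was 67.5 min for cohesin, 75 min for fork protection, 81 min for polymerase delta and clamp, 99 min for clamp loaders and 99.5 min for replication protein A. The SD over strains was between 30.5 min for polymerase alpha and 68.2 min for replication protein A, as large as or larger than most gaps between functions. Pairs of gene and strain that varied ran from 0 of 50 in fork protection to 7 of 40 in polymerase delta and clamp. Most of these times thus come from curves that did not pass. By the highest deposited value, polymerase epsilon was at 111 min in place of 63 min.

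Single times within the early window were also compared gene by gene, which does not test an order between functions. Between 63 and 24 min, over the 9 strains with both, limma called 0 of 37 members (0% of all genes). At an unadjusted p under 0.05 there were 6 of 37, against 5.18% of all genes, all higher at 63 min: POL2 (0.35), MSH6 (0.28), RAD27 (0.25), RFC5 (0.20, higher in 9 of 9 strains), MCD1 (0.17) and SMC1 (0.16). Between 87 and 48 min, again over 9 strains, limma called 0 of 37 (0% of all genes), with 1 member, POL1 (0.29), at an unadjusted p under 0.05, against 7.45% of all genes.

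Well-known landmarks of the cell cycle gave the setting of these peaks: the G1 cyclin gene CLN2, the S phase histone gene HTB2 and the mitotic cyclin gene CLB2. In YPS2055 the first peaks were at 63 min for CLN2, 63 min for the member median, 87 min for HTB2 and 218 min for CLB2. In YPS2067 they were at 63, 63, 135 and 176 min, and in YPS2060 at 48, 48, 135 and 218 min, in the same order of genes. In YPS2066 CLN2 was at 135 min, the members and HTB2 at 111 min and CLB2 at 194 min. In YPS2079 CLN2 was at 87 min, the members at 63 min, HTB2 at 111 min and CLB2 at 218 min, and in YPS183 they were at 48, 87, 152 and 227 min.

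In the other strains the landmarks themselves were less clear. CLN2 had its first peak at 227 min in YPS2073 and YPS3060, after HTB2 (48 min in YPS2073 and 87 min in YPS3060) and CLB2 (111 min in YPS2073 and 135 min in YPS3060). In YPS3137 CLN2 was at 48 min, HTB2 at 87 min and CLB2 at 176 min, and in YPS3395 they were at 63, 87 and 135 min. None of the 3 landmarks passed the spline test in YPS2060, YPS2073, YPS2079, YPS3060 or YPS3137, and in YPS3395 only HTB2 did.

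Differences between strains, in level and then in the shape of the curve, were asked next. Their p-values come from the distance of samples from the smooth curves. With 1 culture per strain, they do not measure the spread between cultures, so strain, species and culture cannot be told apart. For the level, each strain's mean over the 12 times that all strains share was set against the other S. cerevisiae strains. In 0 of 370 pairs of gene and strain did a member pass both the adjusted p of 0.05 and a size of 1 (1.48% of all such pairs over all genes), and the largest difference was 0.48. By the adjusted p alone, 8 of 37 members differed in YPS3395 (39.6% of all genes), all of them higher. Among these were RFA2, at 0.39 in YPS3395 and -0.02 in the S. cerevisiae strains (difference 0.41 ± 0.10, SE, adjusted p = 0.000561), POL30, at 0.83 in YPS3395 and 0.47 in the others (0.36 ± 0.13), and the clamp loader gene RFC2, at 0.11 in YPS3395 and -0.11 in the others (0.23 ± 0.05). CDC21 differed by 0.21, ELG1 by 0.17, PRI1 by 0.16, RAD53 by 0.15 and POL3 by 0.14. Whether the probes match the 2 species' genes equally well was not tested.

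In YPS3137 10 of 37 differed (32.7% of all genes), 5 higher and 5 lower. RFC4 had the largest difference, at 0.55 in YPS3137 and 0.07 in the other strains (0.48 ± 0.09), and its 325 min sample stood at 2.46, where the other 9 strains were between -0.10 and 0.29. In YPS2073 11 of 37 differed (32.9%), 4 higher, led by POL30 (0.46 ± 0.13), and 7 lower, led by PRI2 (-0.37 ± 0.09). In the 7 other strains together 14 of 259 pairs differed (13.4% of all such pairs), with POL30 in YPS183 the largest (-0.38 ± 0.13). The shares of members were below those of all genes in each case, and most YPS2073 samples and 9 of 16 in YPS3137 have older prints.

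For the shape of the curve, with the level removed, 6 pairs passed limma's test against the other S. cerevisiae strains. They were 3 of 37 in YPS2073 (9.06% of all genes) and 1 of 37 each in YPS2066 (2.07%), YPS2067 (3.24%) and YPS3060 (1.00%). The other 6 strains had 0 of 222 pairs (1.05%), among them YPS3395. Over all strains 57 of 370 pairs had an unadjusted p under 0.05, against 9.94% of all pairs of gene and strain. The YPS2073 pairs were POL31, CTF18 and MCD1, whose single low samples are given above.

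ASF1 in YPS2066 was at 0.56 at 135 min and stayed below -0.5 between 176 and 227 min, with -1.14 at 194 min. After values of -0.03 and 0.22 at 251 and 260 min it was at -1.11 at 301 min, where its fitted curve was 0.78 below the other strains (adjusted p = 0.017). In YPS2066 the 135 and 251 min samples rest on 1 array each. DPB2 in YPS2067 was at 0.69 at 63 min and -0.79 at 176 min, 0.67 below the others there (adjusted p = 0.0497). IRR1 in YPS3060 was at 1.01 at 24 min and 1.10 at 63 min, with 0.47 at 48 min between them, and its curve was 0.61 above the others at 24 min (adjusted p = 0.033). In YPS3060 all samples on older prints fall on set A, which holds 48 min but neither 24 nor 63 min. ASF1 and DPB2 no longer passed after quantile normalization or with a spline of 5 degrees of freedom, and IRR1 no longer passed after quantile normalization.

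**Figure D5:**
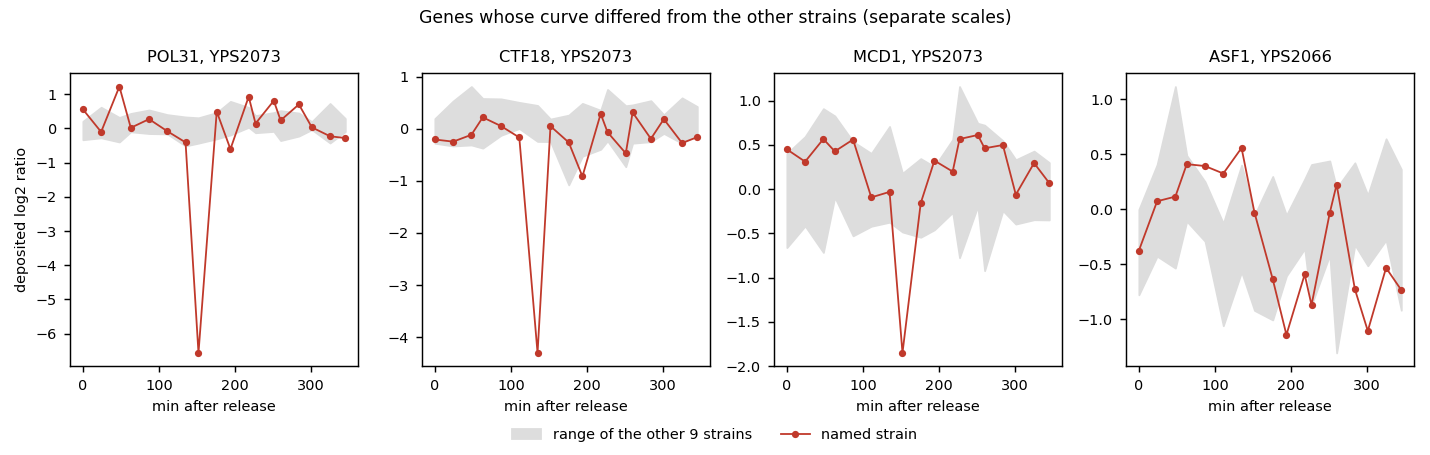
Deposited log2 ratio (y axis, a separate scale in each panel) over time (x axis, min after release) of 4 genes whose curve differed from the other strains. Red points are the samples of the named strain and the grey band spans the lowest to the highest of the other 9 strains; POL31 and MCD1 at 152 min and CTF18 at 135 min are single low samples, while ASF1 in YPS2066 is low in several.

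Other genes of the pathway were taken from a list of 43, of which 42 were measured. In the early window 11 of 42 rose against 0 min and 0 fell (6.25% and 5.61% of all genes), with a list median of 0.13. PDS5, a regulator of cohesin, rose by 0.67 ± 0.11 in 10 of 10 strains, and the cohesin loader gene SCC2 by 0.58 ± 0.12 in 9 of 10. From the early to the middle window 7 of 42 fell and 0 rose (3.94% and 3.86% of all genes), with a median of -0.08. Among the 4 with the largest fall were PDS5 (-0.32 ± 0.08), SCC2 (-0.30 ± 0.07) and DUN1 (-0.23 ± 0.06), a kinase of the DNA damage checkpoint. Late minus middle, 0 of 42 were called (0.0324% of all genes), with 1 at an unadjusted p under 0.05 (6.34% of all genes).

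Outside the 37, the genes most like their mean profile, over 173 samples with each strain centred on its own mean, were RNR1 (Pearson r = 0.83), PDS5 (0.82), RDH54 (0.78), PCL1 (0.77), CLN2 (0.77), CSI2 (0.76), CAC2 (0.75), TOS4 (0.73), PRY2 (0.72) and RBH2 (0.72). RNR1 encodes the large subunit of ribonucleotide reductase, PCL1 and CLN2 encode G1 cyclins and CAC2 encodes a subunit of chromatin assembly factor. These samples share cultures and arrays within a strain, so the values describe likeness and carry no test.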

How the data were processed

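The authors' deposited values are log ratios, treated here as log2, with 1 column per sample. Per the labels, each sample was compared with a common reference on 2-colour arrays, with both dye orientations except in 8 samples on 1 array, and the arrays of a sample had been combined before deposit. How they were combined and normalized, and the log base, centring and direction, are not given in the sources used here. Sample medians ran from -0.066 to 0.039, and no value was missing. A further 7 columns that match no sample were not used. Gene names came from the RefSeq table of assembly R64: 5554 identifiers matched as written, 192 matched once a hyphen was put back, and 426 had no match. The members were found by name.

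The members, gene lists and tests were chosen with earlier results of these data known. Each strain gave 1 mean per window, and windows were compared in limma 3.58.1 (R 4.3.3) blocking on strain. The spline fit was 1 limma model of strain plus a strain-specific natural spline with 7 degrees of freedom, with the spread per gene shared by all strains. Residual degrees of freedom were 93. P-values were adjusted by Benjamini-Hochberg over all 6172 genes. The level and shape of each strain were contrasts of this model with the other S. cerevisiae strains. All members may be named. Of the other pathway genes, the 4 largest rises and falls past the threshold in each window comparison are named, except some that are not reported here, with CLN2, HTB2 and CLB2 as landmarks and the 10 genes most correlated with the member mean. Single samples that stood apart were named after their values were seen. The scripts were tested on simulated data. Summaries used Python 3.11.15, numpy 2.4.6, pandas 2.3.3 and matplotlib 3.10.9.

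Alternatives were quantile normalization, 2007 prints alone, robust eBayes, either set of alternate times alone, a spline with 5 degrees of freedom, a term for the sampling set, and leaving out each strain. Leaving out each time, the 4 strains with older prints or the samples on 1 array was chosen after seeing the data. Signal over background was not analysed here.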

Additional observations from a re-analysis of the deposited data

Results flagged for a closer look

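Over the 36 calls of the first 2 window comparisons, 1 strain stood apart from the other 9 by Dixon's test, which flags about 1 in 20 groups by chance. The early minus 0 min difference of ELG1 was -0.26 in YPS2066 and at least 0.13 in the other 9 strains. Its 24 min sample in YPS2066, on 1 array, was at -1.35, and without the samples on 1 array the difference was -0.0045.

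Curves differed in shape from the other S. cerevisiae strains, by limma's test of the difference itself, in 6 pairs of gene and strain. At its farthest point the fitted curve of ASF1 in YPS2066 was at -0.78 relative to the others (301 min), DPB2 in YPS2067 at -0.67 (176 min) and IRR1 in YPS3060 at 0.61 (24 min). In YPS2073 POL31 was at -2.79 (152 min), CTF18 at -1.20 (135 min) and MCD1 at -1.02 (152 min). Those 3 curves follow the single low samples named in the report.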

How the results depend on the processing

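The rise of the members after release kept its direction and stayed within 1.5 times under every alternative run. The 36 window calls kept their sign in each, and of their 589 alternative values 460 stayed past the threshold and 129 did not. Of 656 alternative values of the 30 varying pairs of gene and strain, 534 stayed past the threshold and 122 did not. Counts of members that fell from the early to the middle window were 22 with 2007 prints alone, 0 with set A alone, 7 with set B alone and 2 to 15 when a strain was left out. The cause was not tested. Shares of all genes called were not counted for the alternative runs, here or for the shape below. The member counts of these runs thus have no rate beside them. Members varying with time became 8 in YPS183 and 3 in YPS3395 after quantile normalization, 2 in YPS2066 with a spline of 5 degrees of freedom, 1 in YPS2060 and 2 in YPS3060 with a term for sampling set. With 2007 prints alone they were 14 in YPS2067, 1 in YPS2079 and 2 in YPS3395. Leaving out 1 time gave 0 to 4 in YPS183, 4 to 9 in YPS2055, 1 to 6 in YPS2066, 4 to 8 in YPS2067, 2 to 4 in YPS2073, 1 to 3 in YPS3060 and 0 to 1 in YPS3137.

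Members differing in shape became 6 in YPS183, 1 in YPS3395 and 0 in YPS2066, YPS2067 and YPS3060 after quantile normalization. They were 0 in YPS2066 and YPS2067 with 5 degrees of freedom. With a term for sampling set they were 3 in YPS2066, 3 in YPS2067, 7 in YPS2073, 2 in YPS3060 and 1 in YPS3395, and with 2007 prints alone 3 in YPS2066, 9 in YPS2067 and 4 in YPS3395. Leaving out 1 time gave 0 to 2 in YPS2066, 0 to 1 in YPS2067, 1 to 5 in YPS2073, 0 to 2 in YPS3060 and 0 to 1 in YPS3137. By the highest deposited value, polymerase epsilon peaked at 111 min. Window comparisons were paired by strain throughout, and with 1 culture per strain there was no replicate number to block on.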
